A study of Rattus norvegicus with 24 samples.

Results

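Slc17a7 encodes VGLUT1, the transporter that loads glutamate into synaptic vesicles of cortical pyramidal neurons, and its signal differed widely among arrays of the rat dorsal striatum. All 24 arrays were ranked by the log2 signal of the Slc17a7 transcript cluster. The 16 arrays compared here were chosen by that signal alone: the 8 highest (high-Slc17a7 arrays) were set against the 8 lowest (low-Slc17a7 arrays) over 68841 other clusters. Each array came from 1 male Sprague Dawley rat that had carried a jugular catheter and lived through self-administration (SA) training. Shock-resistant (SR, 6 arrays) and shock-sensitive (SS, 6 arrays) rats had taken methamphetamine (METH) and then received contingent footshocks, and they were told apart afterwards by whether they kept or cut their intake under shock. YSR and YSS rats (3 arrays each) took saline, were yoked to SR and SS partners, and received shocks they had not caused. CT rats (6 arrays) took saline without shock. The tissue was collected about a month after the last SA session, one day after a second test of cue-induced drug seeking.

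In cortical tissue, glutamatergic pyramidal neurons carry Slc17a7 together with transcription factors of the NeuroD and T-box families. The striatum has almost no glutamatergic cell bodies and consists mostly of GABAergic medium spiny neurons (MSNs), which respond to dopamine through Drd1 or Drd2 and share signalling genes such as Ppp1r1b and Rgs9. The labels name the tissue striatum, and all 14 of the shared MSN genes lay, on average over the 24 arrays, above the spiked bacterial control bioB, whose mean log2 signal of 9.32 served as the level of expression. These are bulk samples, so fewer cells of a type and less RNA per cell cannot be told apart.

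The Slc17a7 cluster (160 probes, chromosome 1, 101161252 to 101173167 in the deposited annotation, which does not name its genome build) was read in every array. The high-Slc17a7 arrays were SR2 (12.82), SR5 (12.84), SS2 (12.87), YSS3 (13.04), YSS2 (13.30), SS3 (13.54), SS6 (13.74) and YSR1 (13.92). The low-Slc17a7 arrays were CT6 (6.50), SS4 (8.41), CT5 (8.95), SR6 (9.01), SS1 (9.72), YSR3 (9.94), SR1 (10.67) and SS5 (10.76). Their means were 13.26 ± 0.43 in the high-Slc17a7 arrays and 9.24 ± 1.38 in the low-Slc17a7 arrays (SD, n = 8 each), a difference of 4.01 or 16.2-fold, which the ranking itself produced and which was not tested. The middle 8 arrays ran from 11.06 (YSR2) to 12.79 (CT2). The lowest high-Slc17a7 array, SR2, therefore lay only 0.04 above CT2, and the highest low-Slc17a7 array, SS5, lay 0.30 below YSR2.

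For reference, the bases before the annotated start of 2 genes are printed: Slc17a7, which ranked the arrays, and Neurod6, the NeuroD gene with the largest difference between the sides. They are RefSeq windows of 250 bases on GRCr8, a build that may differ from that of the array annotation (Slc17a7 chr1:104785955-104786204, plus strand; Neurod6 chr4:86180156-86180405, minus strand). Capitals mark CAGATG or its reverse complement CATCTG, a sequence of the E-box kind that NeuroD factors bind.
Slc17a7: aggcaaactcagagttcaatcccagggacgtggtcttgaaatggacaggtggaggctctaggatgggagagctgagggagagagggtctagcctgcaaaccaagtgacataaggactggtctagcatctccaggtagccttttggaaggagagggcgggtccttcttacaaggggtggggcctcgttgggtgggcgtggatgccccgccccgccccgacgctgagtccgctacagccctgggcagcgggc
Neurod6: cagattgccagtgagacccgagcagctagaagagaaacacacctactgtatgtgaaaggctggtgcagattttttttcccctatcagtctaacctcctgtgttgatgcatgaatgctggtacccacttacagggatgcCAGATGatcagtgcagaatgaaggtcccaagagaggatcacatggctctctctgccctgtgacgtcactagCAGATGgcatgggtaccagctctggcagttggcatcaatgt
The Slc17a7 window held 0 matches and the Neurod6 window held 2. A match stood in 9.46% of 560 windows of coding genes that were called higher and in 8.67% of 150 windows of those called lower, against 11.5% of 14936 coding genes tested and 13.7% of all 27457 windows, so the called genes held this sequence at no higher share than the rest.

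Sides and treatment groups were compared to ask whether the ranking followed the experiment. In SR rats 2 arrays fell on the high side, 2 in the middle and 2 on the low side. In SS rats these numbers were 3, 0 and 3, in YSR rats 1, 1 and 1, in YSS rats 2, 1 and 0, and in CT rats 0, 4 and 2. An exact permutation test of the table of sides by groups gave p = 0.534 (two-sided by construction), with no CT array on the high side and no YSS array on the low side.

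Slc17a7 averaged 11.64 ± 1.53 in SR rats and 11.51 ± 2.21 in SS rats (SD, n = 6 each), 11.64 ± 2.05 in YSR rats and 12.98 ± 0.35 in YSS rats (SD, n = 3 each), and 10.62 ± 2.41 in CT rats (SD, n = 6). Of 6 pairs of groups, YSS against CT had the smallest exact two-sided permutation p, 0.0476 (difference 2.36), which became 0.286 after adjustment over the 6 pairs. YSR against YSS could not go below an exact p of 0.1. In the limma fit over all clusters and 24 arrays the smallest adjusted p for Slc17a7 in these pairs was 0.874.

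**Figure D1:**
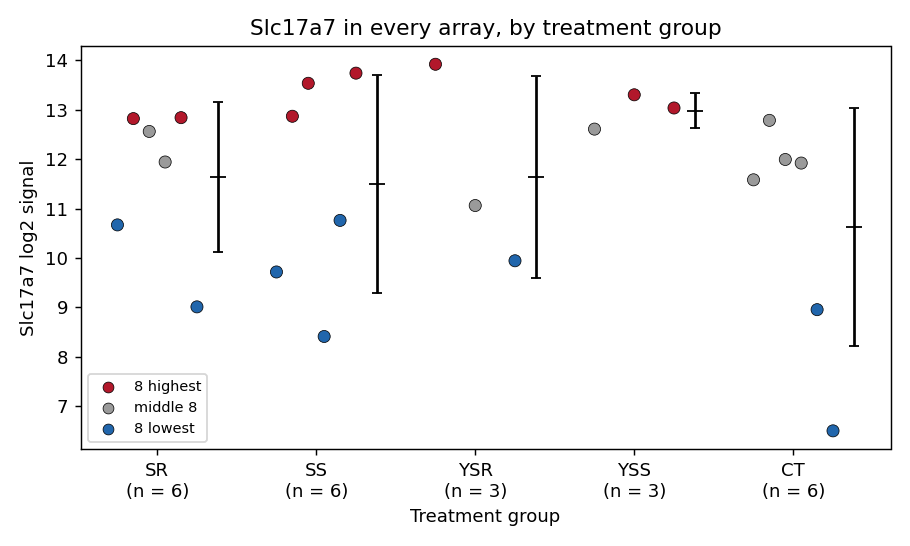
Slc17a7 log2 signal of every array (y axis) by treatment group (x axis). Each point is 1 rat and bars give the group mean ± SD. SR, SS and YSR rats appear on both sides of the ranking, and the 6 CT arrays lie between 6.50 and 12.79.

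2 arrays stood apart within their own side. SR6, on the low side, had the lowest mean of the shared MSN genes there (13.01, against 14.17 to 14.61 in the other 7 low-Slc17a7 arrays), and its Oxt signal, the oxytocin transcript of hypothalamic neurons, was 14.52, against 5.32 to 5.99 in those 7. SR5, on the high side, had the lowest cortical mean there (7.88) and lacked the high Nr4a2 signal of the other 7. Technical measures overlapped: array medians were 5.12 to 5.31 in the high-Slc17a7 arrays and 5.18 to 5.32 in the low-Slc17a7 arrays, and bioB was 9.02 to 9.51 in the high-Slc17a7 arrays and 9.01 to 9.73 in the low-Slc17a7 arrays. No arrays were identical, with correlations between pairs of arrays from 0.988 to 0.996.

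In total 1520 clusters (2.21% of those tested) were called, meaning a Benjamini-Hochberg adjusted p under 0.05 in limma over all clusters. Of these, 1161 (1.69%) were higher and 359 (0.521%) lower in the high-Slc17a7 arrays. Since all RNAs came from the arrays that Slc17a7 ranked, a call says which clusters moved with Slc17a7 and is no independent evidence that the arrays differ. The criterion of the study, an unadjusted p under 0.05 and a 1.7-fold change, was met by 623 clusters (0.905%), 441 higher and 182 lower. The median difference was 0.59 among clusters called higher, -0.55 among those called lower and -0.03 over all clusters. Calls were made for 4.08% of coding clusters (803 higher and 206 lower) and for 0.919% of noncoding clusters (173 higher and 91 lower).

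Without SR6 the calls numbered 2408 (1536 higher, 872 lower), and without SR5 they numbered 1204 (1001 higher, 203 lower). They numbered 988 without YSR1 and 1012 without CT5. With treatment group in the fit 625 clusters were called, 559 higher and 66 lower. CT had no high and YSS no low-Slc17a7 array, so in that fit the difference between sides rests on SR, SS and YSR arrays. These were 2 against 2 in SR, 3 against 3 in SS and 1 against 1 in YSR rats.

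The middle 8 arrays did not enter the fit. Their mean lay between the means of both sides for 1496 of the 1520 called clusters (98.4%), against 43.8% of all clusters. Called clusters were chosen for a gap between sides, and the middle arrays are the middle of the same ranking. Both raise this share, so it is no independent evidence. The difference between sides was also taken within the 3 groups that had arrays on both, which entered the fit. It ran in the called direction for 98.5% of called clusters in SR rats (70.7% of all clusters kept their sign), for 100% in SS rats (75.0% of all) and for 99.7% in YSR rats (72.3% of all).

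Of the 12 genes with the largest higher differences, 10 had sides that did not overlap. C1ql3, a secreted C1q-like protein that binds synaptic receptors (chromosome 17, 80314186 to 80320681), had signals from 10.13 to 13.19 (median 11.33) in the high-Slc17a7 arrays, against 6.97 to 8.78 (median 7.99) in the low-Slc17a7 arrays. All 8 high-Slc17a7 arrays lay above all low-Slc17a7 arrays, and the middle 8 ran from 8.44 to 9.72. Its difference was 3.38 ± 0.39 (SE), 10.4-fold (limma adjusted p = 7.81e-05). Tbr1, a T-box transcription factor of deep cortical layers (chromosome 3, 47677720 to 47685902), ranged from 8.04 to 10.19 (median 9.51) in the high-Slc17a7 arrays, against 5.46 to 7.80 (median 7.07) in the low-Slc17a7 arrays. Tbr1 thus differed by 2.47 ± 0.33 (adjusted p = 0.000314), again without overlap.

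Genes of synapses and neurites in this set were Nptxr, the neuronal pentraxin receptor (2.86 ± 0.29 higher), and Nrn1, the neurite growth factor neuritin (2.69 ± 0.34). Calcium handling was represented by Atp2b4, a plasma membrane calcium pump (2.94 ± 0.27), and Pde1a, a phosphodiesterase driven by calmodulin (2.91 ± 0.33). Atp2b4 ranged from 12.61 to 13.71 in the high-Slc17a7 arrays and from 9.30 to 11.56 in the low-Slc17a7 arrays, and Pde1a ranged from 11.70 to 12.79 in the high-Slc17a7 arrays and from 7.82 to 10.84 in the low-Slc17a7 arrays. Ccn3, a matricellular protein (3.00 ± 0.32), Sidt1, a transmembrane protein of the SID family (2.68 ± 0.26), Vxn, which encodes vexin (2.59 ± 0.34), and Car10, a carbonic anhydrase relative without enzyme activity (2.40 ± 0.26), completed the genes whose sides did not overlap. The limma adjusted p of these 8 genes ran from 1.32e-05 (Atp2b4) to 0.000265 (Vxn). Over all clusters, 427 (0.62%) had sides that did not overlap.

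Nr4a2, an orphan nuclear receptor of the claustrum and deep cortex, overlapped between sides through SR5. It reached 11.83 to 13.60 in the other 7 high-Slc17a7 arrays and 9.09 in SR5, against 6.77 to 11.28 in the low-Slc17a7 arrays (difference 3.07 ± 0.63, adjusted p = 0.0119). Without SR5 its difference was 3.53 (adjusted p = 0.00101). Nr4a2 and the genes whose sides did not overlap kept their calls without each array in turn and with treatment group in the fit, where Nr4a2 had an adjusted p of 0.0440. When the 8 arrays in which the choroid plexus gene Kl lay above the mean of bioB were left out (3 high against 5 low-Slc17a7 arrays), Nr4a2 differed by 1.41 and was not called (adjusted p = 0.740). The 3 high arrays kept were SR2 (11.83), YSS2 (12.92) and SR5 (9.09), so the low Nr4a2 value of SR5 weighed more in that fit. C1ql3, Tbr1, Nrn1 and Vxn were not called there either, at differences of 3.51 for C1ql3, 2.00 for Tbr1, 2.41 for Nrn1 and 2.41 for Vxn, and 6 of the 12 genes were.

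**Figure D2:**
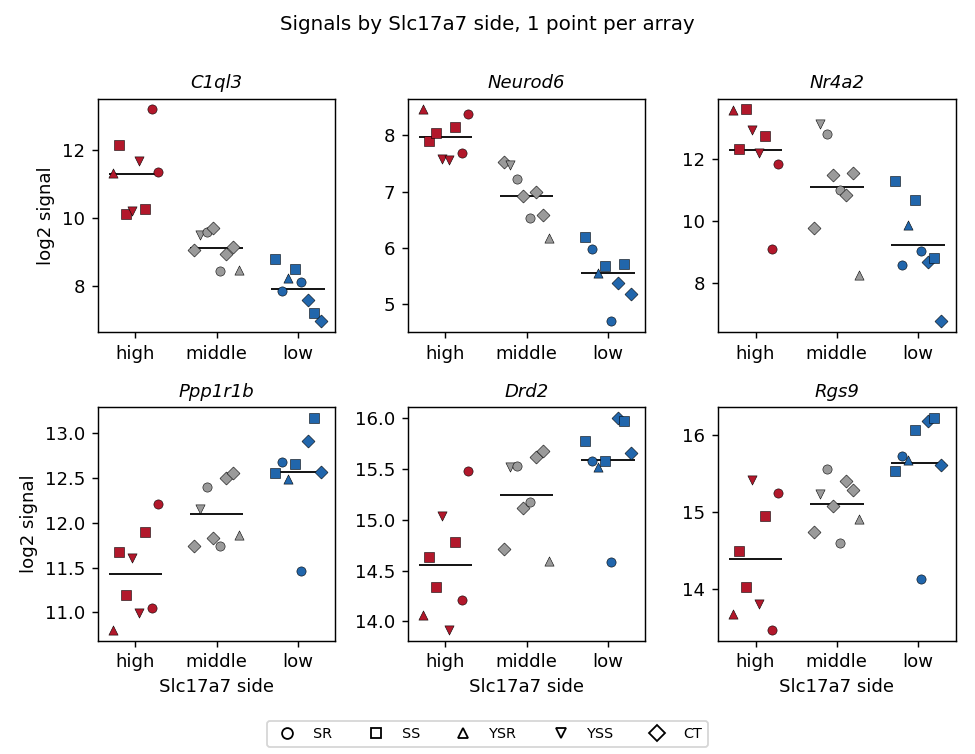
Log2 signal (y axis) of 6 genes by side of the Slc17a7 ranking (x axis: high, middle, low), with 1 point per array, marker shape for treatment group and a line at the mean. C1ql3 and Neurod6 do not overlap between the high and low sides, SR5 is the single low point of Nr4a2 on the high side, and SR6 is the lowest low-Slc17a7 point for Ppp1r1b, Drd2 and Rgs9.

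The 12 largest lower genes were smaller in size and overlapped between sides in every case. Scn4b, a sodium channel subunit abundant in MSNs (chromosome 8), ranged from 11.42 to 13.60 (median 12.11) in the high-Slc17a7 arrays, against 12.30 to 14.87 (median 14.17) in the low-Slc17a7 arrays (difference -1.64 ± 0.37, adjusted p = 0.0226). Foxo1, a forkhead transcription factor, ranged from 10.74 to 12.58 (median 11.02) in the high-Slc17a7 arrays, against 11.31 to 13.64 (median 12.96) in the low-Slc17a7 arrays (difference -1.61 ± 0.30, adjusted p = 0.00577). SR6 (11.31) was the only low-Slc17a7 array within the range of the high-Slc17a7 arrays for Foxo1, and SR2 (12.58) was the highest of those.

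Several of the other lower genes are known for signalling or scaffold roles in striatal neurons. Rasd2, the striatal GTPase Rhes, was lower by a difference of -1.46 ± 0.31, Rgs9, which ends dopamine receptor signalling through G proteins, by -1.25 ± 0.32, and Strn, the scaffold protein striatin, by -1.24 ± 0.23. Actn2, an actinin of dendritic spines (-1.25 ± 0.32), and Cdh8, a cadherin of synaptic contacts (-1.33 ± 0.28), were lower too. Lrrc10b (-1.69 ± 0.43), Mctp1, a C2-domain membrane protein (-1.32 ± 0.31), Pcp4l1, a relative of the calmodulin-binding protein Pcp4 (-1.28 ± 0.28), Acvr1c, the activin receptor ALK7 (-1.27 ± 0.32), and Sh3rf2, an SH3-domain RING finger protein (-1.24 ± 0.26), completed the set. The adjusted p of the 12 ran from 0.00577 (Foxo1) to 0.0488 (Actn2).

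These lower calls rested on single arrays more than the higher ones. Foxo1, Rasd2, Cdh8, Pcp4l1, Strn and Sh3rf2 kept their calls without each array in turn. Scn4b lost its call without YSS3, SS3, YSR1 or CT5 (adjusted p up to 0.0554). Lrrc10b, Mctp1, Actn2 and Rgs9 lost theirs without any of SR5, YSS3, SS3, SS6, YSR1, CT6, SS4, CT5, SS1, YSR3, SR1 and SS5, and Acvr1c without any of these or SS2, with adjusted p up to 0.111 (Actn2). Without SR6 all 12 were called with differences of -1.97 to -1.40. With treatment group in the fit 0 of the 12 were called, at differences of -1.74 to -0.98 and adjusted p of 0.0938 to 0.232.

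Pyramidal neuron genes were counted next, from a list of 13 that left out Slc17a7. Of the 13, 9 were called higher, against 1.69% of all clusters, 0 were called lower, and their median difference was 1.21, against -0.03 over all clusters. Neurod6, a NeuroD transcription factor of pyramidal neurons, ranged from 7.56 to 8.47 (median 7.98) in the high-Slc17a7 arrays, against 4.69 to 6.19 (median 5.61) in the low-Slc17a7 arrays. It differed by 2.43 ± 0.19 (adjusted p = 4.99e-06), and the sides did not overlap. Its relative Neurod2 ranged from 8.14 to 8.92 in the high-Slc17a7 arrays, against 5.67 to 6.98 in the low-Slc17a7 arrays (difference 2.06 ± 0.17, adjusted p = 5.05e-06). Both NeuroD genes lay below bioB on both sides, so their levels are low on this array. Of the 13 genes only 6 had a mean above bioB on either side. With the test limited to clusters with a mean above bioB, 1 of the list was called.

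Cck, a neuropeptide of pyramidal cells and interneurons (2.30 ± 0.30), Nptx1, a neuronal pentraxin (2.11 ± 0.25), Slc30a3, the zinc transporter of glutamatergic vesicles (1.21 ± 0.15), and Sv2b, a synaptic vesicle glycoprotein (1.04 ± 0.20), were called as well and did not overlap between sides. Neurod1 was called at 0.72 ± 0.15, and Tbr1 is given above. Neurod1 and Slc30a3 also lay below the bioB mean in every array. Kcnv1, a silent potassium channel subunit, differed by 0.22 ± 0.21, Bhlhe22 by 0.15 ± 0.09, Emx1 by 0.04 ± 0.06 and Itpka, a kinase of inositol trisphosphate, by -0.04 ± 0.14, and none of these 4 passed the test. The mean of the 13 genes was 7.88 to 8.76 (median 8.40) in the high-Slc17a7 arrays, 7.33 to 8.20 in the middle 8 and 6.55 to 7.53 (median 7.10) in the low-Slc17a7 arrays. Ranking the arrays by this mean in place of Slc17a7 gave 6 of the same high arrays and 7 of the same low arrays, and 0 arrays changed to the opposite side. With treatment group in the fit 6 of the 13 genes were called, without Neurod1 (adjusted p = 0.0812) and Sv2b (adjusted p = 0.0685).

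Layer and claustrum genes moved less evenly. For comparison, 1.69% of all clusters were called higher and 0.521% lower. Among 8 upper-layer genes 2 were called higher, and the list median was 0.05. They were Rasgrf2, a Ras exchange factor (2.19 ± 0.34, adjusted p = 0.00128), and Cux2, a homeobox factor of upper layers (0.74 ± 0.10, adjusted p = 0.000265). Cux2 lay below the bioB mean in every array. Among 9 deep-layer genes 3 were called higher, Fezf2, which specifies subcerebral projection neurons (1.39 ± 0.14, adjusted p = 1.8e-05), Cplx3, a complexin of subplate neurons (1.49 ± 0.35, adjusted p = 0.0276), and Rprm (0.73 ± 0.13, adjusted p = 0.00367). The deep-layer median was 0.69, and Cplx3 lost its call without SS3, YSR1, CT6, SS4, CT5 or SS1 and with treatment group in the fit (adjusted p = 0.197). All 9 deep-layer genes had an unadjusted p under 0.05 in limma. Of these, 3 had differences below 0 and were not called. They were Nxph4 (-0.63, adjusted p = 0.194), Syt6 (-0.57, adjusted p = 0.0720) and Tle4 (-0.49, adjusted p = 0.0803). The count of deep-layer calls was 5 without SR2 and 7 without SR6, where these 3 were called lower. Of 7 claustrum genes, Nr4a2, the G protein subunit Gng2 (1.74 ± 0.23, adjusted p = 0.000237) and the netrin relative Ntng2 (0.66 ± 0.10, adjusted p = 0.00109) were called higher. Of the 4 not called, Oprk1 (-0.24) and Synpr (-0.12) had differences below 0. Hippocampal genes (6 measured) had 0 calls in limma, 0 at an unadjusted p under 0.05 and a median of -0.07.

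MSN genes ran the other way. Of 14 genes shared by both MSN types, 13 were called lower, against 0.521% of all clusters, and their median difference was -1.07. Ppp1r1b, which encodes the dopamine-regulated phosphatase inhibitor DARPP-32, ranged from 10.81 to 12.21 (median 11.40) in the high-Slc17a7 arrays, against 11.46 to 13.17 (median 12.61) in the low-Slc17a7 arrays. It differed by -1.13 ± 0.22 (adjusted p = 0.00902), and SR6 at 11.46 was the only low-Slc17a7 array within the range of the high ones. Adcy5, the adenylyl cyclase of dopamine receptor signalling, ranged from 13.94 to 15.32 (median 14.32) in the high-Slc17a7 arrays, against 14.56 to 16.05 (median 15.67) in the low-Slc17a7 arrays (difference -1.09 ± 0.22, adjusted p = 0.0115). Pde10a and Pde1b, phosphodiesterases of MSNs, differed by -1.18 ± 0.27 and -0.94 ± 0.22, and the G protein subunit Gnal by -0.69 ± 0.16. Meis2, a homeobox factor, differed by -0.43 ± 0.13 and did not pass the test (adjusted p = 0.127).

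The mean of the 14 MSN genes was 12.60 to 14.02 (median 13.02) in the high-Slc17a7 arrays, 13.28 to 14.08 in the middle 8 and 13.01 to 14.61 (median 14.25) in the low-Slc17a7 arrays. Without SR6 all 14 were called lower. The count fell to 3 without YSS3, YSR1 or CT5, to 5 without SR5, SS3, SS4, SS1, YSR3 or SR1 and to 6 without SS6 or CT6, and the list median was -1.25 without SR6 and -1.01 without SR5. With treatment group in the fit 0 were called and the median was -0.97. With arrays ranked by the cortical list 0 were called too. The count was 1 with 12 arrays a side, 5 with 6 a side and 2 with unmoderated variances. Across the alternatives other than leaving out single arrays it ran from 0 to 13. The list median ran from -1.31 to -0.70 in these, the continuous Slc17a7 term aside.

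**Figure D3:**
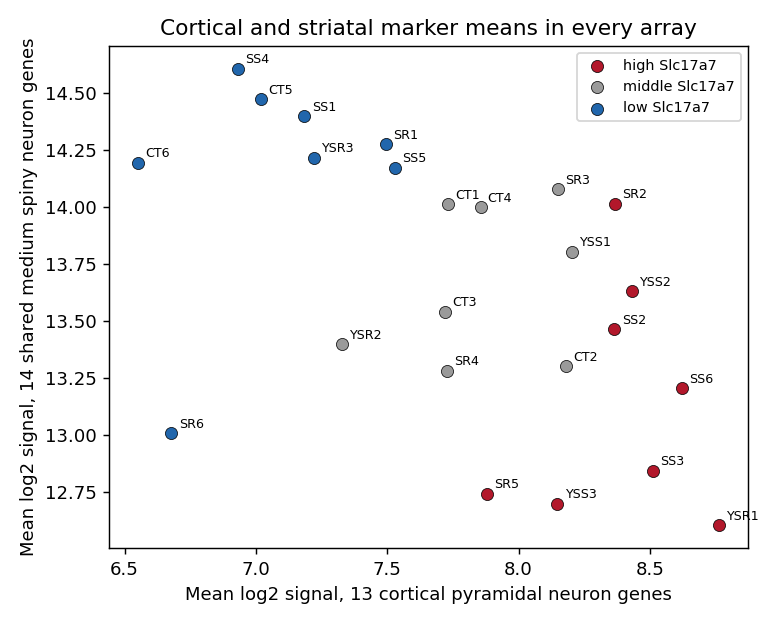
Mean log2 signal of 14 shared MSN genes (y axis) against that of 13 cortical pyramidal neuron genes (x axis), with 1 point per array, named by group and replicate and coloured by side. High-Slc17a7 arrays lie to the right of all low-Slc17a7 arrays, and SR6 is the low-Slc17a7 array with a low MSN mean.

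Genes particular to 1 MSN type moved in smaller numbers, against 0.521% of all clusters called lower. Of 8 genes of D1 MSNs 2 were called lower, Drd1, the D1 dopamine receptor (-1.10 ± 0.24, adjusted p = 0.0208), and the transcription factor Ebf1 (-0.56 ± 0.10, adjusted p = 0.0047). Drd1 ranged from 11.88 to 13.29 in the high-Slc17a7 arrays, against 12.17 to 14.02 in the low-Slc17a7 arrays, and it was not called without YSR1 or CT5. The peptide genes Tac1 (substance P) and Pdyn (dynorphin) differed by -1.24 ± 0.38 and -0.13 ± 0.16 and did not pass the test. Of 6 genes of D2 MSNs 3 were called lower, Drd2, the D2 receptor (-1.03 ± 0.22, adjusted p = 0.0155), Adora2a, the adenosine receptor (-0.69 ± 0.16, adjusted p = 0.0312), and the orphan receptor Gpr6 (-1.09 ± 0.26, adjusted p = 0.0325). Drd2 was called without each array in turn, while Adora2a and Gpr6 were not called without any of SR5, YSS3, SS3, SS6, YSR1, CT6, SS4, CT5, SS1, YSR3, SR1 or SS5. Penk, the enkephalin precursor, ranged from 15.70 to 16.42 in the high-Slc17a7 arrays, against 15.69 to 16.67 in the low-Slc17a7 arrays, and did not pass the test (adjusted p = 0.154). Without SR6 the calls were 4 of 8 for D1 and 5 of 6 for D2 genes, and with treatment group in the fit they were 0 for both. With arrays ranked by the cortical list they were 1 for D1 and 0 for D2 genes.

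**Figure D4:**
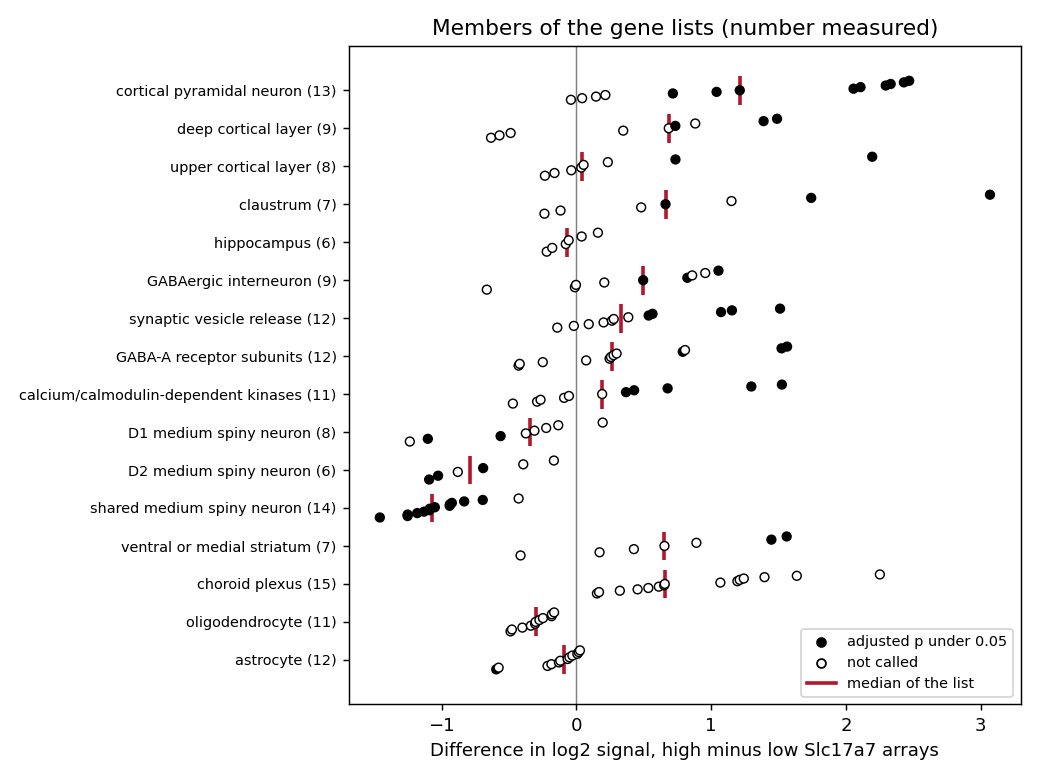
Difference in log2 signal between high and low-Slc17a7 arrays (x axis) for every measured member of 16 gene lists (y axis, number measured in brackets). Filled points passed an adjusted p of 0.05, open points did not, and red bars mark list medians, which run from -1.07 for shared MSN genes to 1.21 for cortical pyramidal neuron genes.

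Interneuron, vesicle release and receptor genes followed. Their counts stand against 1.69% of all clusters called higher and 0.521% called lower. The share was larger among expressed clusters: of the 9639 with a mean above bioB, tested alone, 577 were called higher and 227 lower. Of the 12 vesicle release genes 11 had a mean above bioB on either side. Of 9 interneuron genes 3 were called higher, Vip (1.05 ± 0.22), Sst, the somatostatin gene (0.82 ± 0.21), and Npy, neuropeptide Y (0.50 ± 0.12), and Pvalb (0.86 ± 0.36) was not (adjusted p = 0.319). The list median was 0.50, and 3 of the 9 had differences below 0, led by Reln, the secreted protein reelin (-0.66 ± 0.22, adjusted p = 0.164). Vip kept its call without each array, Npy lost it without SS3, SS6, YSR1, CT6, SS1 or YSR3, and Sst, with an adjusted p of 0.049, lost it without any array but SS2, YSS2 and SR6. Only Sst was called with treatment group in the fit (adjusted p = 0.0439, against 0.119 for Vip and 0.0872 for Npy). Of 12 genes of synaptic vesicle release 5 were called higher and 0 lower, with a median of 0.33. Stx1a, the plasma membrane SNARE syntaxin, ranged from 8.50 to 9.54 (median 9.18) in the high-Slc17a7 arrays, against 6.97 to 8.01 (median 7.63) in the low-Slc17a7 arrays (difference 1.51 ± 0.15, adjusted p = 2.03e-05). The synapsins Syn1 and Syn2 differed by 1.07 ± 0.12 and 1.15 ± 0.19 and the calcium sensor Syt1 by 0.54 ± 0.06, all without overlap. The SNARE gene Snap25 differed by 0.20 ± 0.08 and did not pass (adjusted p = 0.265).

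Among 12 GABA-A receptor subunits 3 were called higher, Gabra5 (1.56 ± 0.17), Gabra3 (1.52 ± 0.26) and Gabrb1 (0.79 ± 0.19), against 1.69% of all clusters. Gabra5 ranged from 9.39 to 10.17 in the high-Slc17a7 arrays, against 7.78 to 9.02 in the low-Slc17a7 arrays (adjusted p = 5.33e-05), and its sides did not overlap. Gabrb1 was not called without YSS3, SS6, YSR1, CT6, SS4, CT5, YSR3 or SR1, nor with treatment group in the fit (adjusted p = 0.121). Gabrg3 (-0.43 ± 0.20) and Gabra4 (-0.42 ± 0.19) had the largest differences below 0 and did not pass. Without SR6, 4 subunits were called higher and 1, Gabra4, lower (-0.57, adjusted p = 0.0265), while Gabrg3 passed without SR2 (adjusted p = 0.0357). Of 11 calcium/calmodulin-dependent kinase genes 5 were called higher, Camk2d (1.52 ± 0.33), Camk1g (1.30 ± 0.29), Camk2g (0.68 ± 0.16), Camkk1 (0.43 ± 0.11) and Camk1 (0.37 ± 0.06). Camk2a, the main forebrain subunit, was 16.83 to 17.05 in the high-Slc17a7 arrays and 16.23 to 17.04 in the low-Slc17a7 arrays and did not pass (adjusted p = 0.41). Camk1 and Camk2d kept their calls without each array, and Camk1g lost it without CT5. Camk2g lost its call without SR5, YSS3, SS3, SS6, YSR1, CT6, SS4, CT5, SS1, YSR3 or SR1, and Camkk1 without any array but SS2, YSS2, SS4 and SS1. The kinases called then numbered 2 without CT5 and 3 without SR5, YSS3, SS3, SS6, YSR1, CT6, YSR3 or SR1. Only Camk1 was called with treatment group in the fit (adjusted p = 0.00765). Of the 5 kinase genes with differences below 0, Camk4 had the largest (-0.47 ± 0.18) and did not pass (adjusted p = 0.263). Without SR6, 4 kinase genes were called higher and 2 lower, Camk4 (adjusted p = 0.0169) and Camk2b (adjusted p = 0.0111).

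Ionotropic glutamate receptor genes were split, beside 1.69% of all clusters called higher and 0.521% called lower. The AMPA subunit Gria3 (0.45 ± 0.10) and the kainate subunit Grik3 (0.41 ± 0.10) were called higher, and the kainate subunit Grik2 (-0.42 ± 0.10) lower, of 8 measured. Grik3 lost its call without YSR1, CT6, CT5 or YSR3 and Grik2 without SR5, SS2, YSS3, SS3, SS6, YSR1, YSR3 or SR1, so that 1 gene was called without YSR1 or YSR3. Of the 8, 0 were called with treatment group in the fit (adjusted p = 0.204 for Gria3, 0.198 for Grik3 and 0.149 for Grik2). Of 7 NMDA subunits only Grin2c was called, lower by a difference of -0.31 ± 0.08 at an adjusted p of 0.0496, and it lost its call without any array but SR2 and SR6. Slc38a1, a glutamine transporter, was the 1 called gene of 9 in vesicular glutamate and GABA transport (-0.30 ± 0.08, adjusted p = 0.0467), and its call was lost without any array but SR2, SS2 and SR6. The NMDA and transport lists had 0 calls with treatment group in the fit.

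Lists of other cell types had few calls, beside 2.21% of all clusters called in either direction. The astrocyte bicarbonate transporter Slc4a4 was lower in all 8 high-Slc17a7 arrays (12.76 to 13.47) than in any low-Slc17a7 array (13.61 to 13.86), a difference of -0.59 ± 0.09 (adjusted p = 0.000702), while the other 11 astrocyte genes did not pass. The thalamic list had 1 call, Tnnt1 (-0.43 ± 0.10, lost without SR5, YSS3, SS6, YSR1, SS4, CT5, YSR3, SR1 or SS5), and the septal list 1, Trpc4 (1.02 ± 0.21), and both lists had 0 calls with treatment group in the fit. All 11 oligodendrocyte genes had differences below 0, with a median of -0.30, and none passed, also not at an unadjusted p under 0.05. Cholinergic, hypothalamic, ependymal, oligodendrocyte precursor, microglial, endothelial, meningeal, blood and immediate early genes, neurofilaments, qPCR targets and qPCR reference genes (84 genes measured) had 0 calls in limma, and 14 of the 84 had an unadjusted p under 0.05. Over all clusters 8532 of the 68841 tested did. The endothelial list held 4 of the 14, and all 7 of its genes had differences below 0 (median -0.23).

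Choroid plexus RNA differed from array to array on both sides. The mean of 15 choroid plexus genes was 5.92 to 10.3 (median 9.13) in the high-Slc17a7 arrays and 6.33 to 10.6 (median 6.56) in the low-Slc17a7 arrays. All 15 had differences above 0 (median 0.66), and none was called or had an unadjusted p under 0.05. Kl, a defining choroid plexus gene, lay above the mean of bioB in 5 high and 3 low-Slc17a7 arrays. With these 8 arrays left out, 3 against 5 remained and 79 clusters were called, 77 higher and 2 lower. The cortical list then had 3 calls and a median of 1.08, and the MSN list 0 calls and a median of -0.96. The deep-layer, vesicle release, GABA-A, striatal and ventral or medial striatum lists had 1 call each, and the other lists had 0. With the choroid plexus mean as a covariate in all 16 arrays 1391 clusters were called. The part of choroid plexus RNA in the calls was not otherwise tested.

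The striatal genes that the study listed from its group comparisons were looked up on both sides of the ranking, with its microRNAs and an angiotensin-converting enzyme-like locus left out. They were chosen on these same arrays, so their direction is no independent evidence. Of 25 genes 23 were measured, and 4 were called higher (Glra2, Gda, Wfs1 and Pcdh19), 0 lower, with a median difference of 0.39. The share of all clusters called higher was 1.69%. Glra2, a glycine receptor subunit, ranged from 9.10 to 10.85 (median 9.96) in the high-Slc17a7 arrays, against 7.06 to 9.58 (median 7.86) in the low-Slc17a7 arrays (difference 2.09 ± 0.32, adjusted p = 0.00119). The highest low-Slc17a7 value of Glra2, 9.58, was that of SR6. Gda, the guanine deaminase, ranged from 11.99 to 13.75 (median 12.83) in the high-Slc17a7 arrays, against 10.64 to 11.88 (median 11.21) in the low-Slc17a7 arrays (difference 1.56 ± 0.21, adjusted p = 0.000314), without overlap.

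Wfs1, the endoplasmic reticulum protein wolframin, differed by 1.45 ± 0.25 (adjusted p = 0.00335), and Pcdh19, a protocadherin, by 1.25 ± 0.20 (adjusted p = 0.00203). SR6 was again the highest low-Slc17a7 array for both, at 12.87 for Wfs1 and 9.68 for Pcdh19. All 4 genes ran in the same direction within each group that had both sides. For Wfs1 these differences were 1.74 in SR, 0.89 in SS and 1.97 in YSR rats, and for Glra2 they were 1.88 in SR, 1.52 in SS and 3.56 in YSR rats. With treatment group in the fit Gda, Glra2 and Pcdh19 were called, and Wfs1 was not (adjusted p = 0.0578), and without the arrays with high Kl only Gda was (adjusted p = 0.0492). Wfs1 and Gda also belong to the list of ventral or medial striatum, in which they were the 2 calls of 7 genes (median 0.65).

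Between SR and CT rats the same genes were compared with and without the Slc17a7 signal of each array as a covariate. The 2 comparisons share arrays, and the covariate was added after the values had been seen. Glra2 averaged 9.56 in SR rats and 8.07 in CT rats, a difference of 1.49 ± 0.62 (SE) without and 1.12 ± 0.50 with the covariate. Wfs1 averaged 12.89 in SR and 11.68 in CT rats, a difference of 1.20 ± 0.43 without and 1.03 ± 0.40 with it. Gda differed by 0.993 ± 0.38 without and 0.74 ± 0.29 with the covariate, and Pcdh19 by 0.998 ± 0.33 without and 0.81 ± 0.28 with it. These 4 genes had been called for moving with Slc17a7, so a smaller difference with the covariate is partly built in. Over all measured genes of the striatal list the median absolute difference was 0.70 without and 0.67 with it. Other listed genes did not shrink, such as Fstl5 (0.577 without, 0.582 with) and Npas4 (-0.704 without, -0.738 with). None of the 4 passed the adjusted limma test in either fit (adjusted p = 0.86 without and 0.963 with the covariate).

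Over all clusters, those at the criterion of the study numbered 47 with and 73 without the covariate for SR against CT, 117 with and 247 without it for YSS against CT, and 359 with and 414 without it for YSR against YSS. They numbered 39 with and 21 without it for SS against CT, 52 with and 44 without it for SR against SS, and 95 with and 98 without it for YSR against CT. Adjusted calls numbered 0 in all 6 pairs in both fits, while clusters with an unadjusted p under 0.05 ran from 2453 to 4164 without and from 2569 to 4085 with the covariate.

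**Figure D5:**
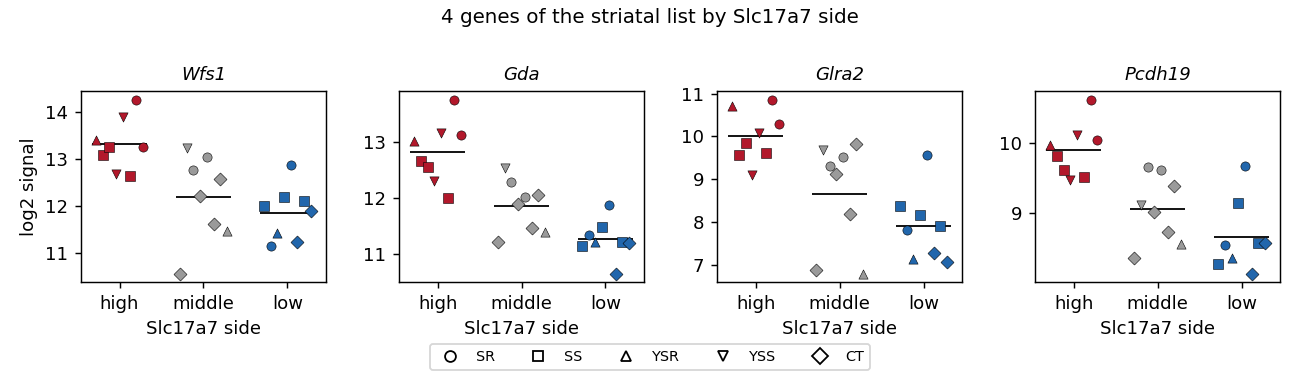
Log2 signal (y axis) of Wfs1, Gda, Glra2 and Pcdh19 by side of the Slc17a7 ranking (x axis: high, middle, low), with 1 point per array, marker shape for treatment group and a line at the mean. SR6 is the highest low-Slc17a7 point in all 4 panels, and Gda does not overlap between the high and low sides.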

How the data were processed

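Total RNA of the dorsal striatum of 24 rats was hybridized to Affymetrix rat transcriptome arrays, 1 array per rat. The authors summarized the scans with the Affymetrix Expression Console (version not given in the sources used here) into the deposited log2 signals. How they were summarized and normalized is not given in the sources used here. A second deposited table holds the cluster annotation and the authors' own fold changes and p-values, which were not used. Per the file headers its probe numbers per cluster are plain annotation and no other measure was taken from it.

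Of 70580 rows 1738 controls were left out, and the Slc17a7 cluster was left out of the 68842 others for the test. Names came from the deposited annotation, updated through RefSeq for GRCr8: 20351 clusters had 1 gene name, 755 several and 47736 none. Sides were compared with limma 3.58.1 (R 4.3.3; cell means, moderated variances, Benjamini-Hochberg over all clusters), and treatment groups also with exact permutation tests (scipy 1.17.1). The labels give no batch. Precision depends on the number of arrays.

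Named genes were the 12 largest called differences in each direction among coding clusters with 1 gene name above bioB on either side, and from each list the called members and up to 4 with the highest means. The ranking, the gene lists and the tests were chosen with earlier results of these data known. Some genes that this rule names are not reported here. A gene with several clusters was read from the one with the highest mean. Alternatives covered normalization, expression filters, variance estimates, the number of arrays a side, a continuous Slc17a7 term, treatment, replicate number and choroid plexus covariates, another ranking, and leaving out each array. Leaving out the arrays with high Kl, and the Slc17a7 covariate, were chosen after seeing the data. Figures were drawn with matplotlib 3.10.9.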

Additional observations from a re-analysis of the deposited data

Results flagged for a closer look

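The named genes and marker means of each side, and Slc17a7 in the SR, SS and CT groups, gave 95 sets of values. In 19 of them 1 array lay far from the others (Dixon's test), where chance flags about 1 in 20 sets. The same few arrays recur, so these flags are not separate events. SR6 lay below the other low-Slc17a7 arrays for Foxo1 (11.31, next 12.62), Rasd2 (13.45, next 14.6), Cdh8 (9.56, next 10.97), Mctp1 (11.33, next 13.09), Acvr1c (9.56, next 11.22), Actn2 (11.52, next 12.75), Rgs9 (14.13, next 15.53), Strn (13.45, next 14.38) and Sh3rf2 (8.77, next 10.33). It was also the lowest for the means of the D1 (9.29, next 9.81), D2 (10.96, next 11.92) and shared MSN genes (13.01, next 14.17), and the highest for the mean of the hypothalamic genes (6.45, next 5.4). SR5 lay below the other high-Slc17a7 arrays for Nr4a2 (9.09, next 11.83) and above them for the mean of the hippocampal genes (6.43, next 6.21). SR2 lay above the other high-Slc17a7 arrays for Foxo1 (12.58, next 11.61), Pcp4l1 (11.93, next 10.84) and the mean of the D1 genes (9.98, next 9.53). YSS2 was the lowest high-Slc17a7 array for the mean of the oligodendrocyte precursor genes (7.27, next 7.93).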

How the results depend on the processing

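Against 1520 calls, 804 were made among the 9639 clusters with a mean above bioB, 782 among the 9754 with a CT mean above it, 884 with 6 and 860 with 12 arrays a side, 625 with treatment group as a covariate, 828 with arrays ranked by the cortical list (762 higher, 66 lower) and 79 without the arrays with high Kl. Leaving out 1 array gave 988 (without YSR1) to 2408 (without SR6) calls, and 1012 without CT5. Quantile normalization, median centring, 1 cluster per gene, an intensity trend, unmoderated variances, a continuous Slc17a7 term and the choroid plexus covariate gave 1098 to 1586 calls. Higher calls were 83.9% of the calls after median centring, against 76.4% in the deposited signals. Over single genes and settings 8679 values kept their side of the threshold, 74 gained a call and 585 lost one. Of genes called in either fit 0 reversed, while a change of sign in a gene called in neither was counted as kept. Of list medians 1009 moved by less than the spread between arrays and 31 by more.

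Replicate numbers are shared between groups, but nothing says that they pair rats. Deviations from group means correlated between -0.428 and 0.384 in 39 pairs that share a number (median 0.0182), and only 4 arrays of 24 matched best with their own number. With the replicate block 1198 clusters were called, and Slc17a7 differed in 0 pairs of treatment groups (smallest adjusted p 0.869). The exact p of sides against groups was 0.580 with 12 and 0.437 with 6 arrays a side.

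A sample of 8 arrays a side limits precision, and the cut between SR2 and CT2 was set by a gap of 0.04. The causes of these changes were not tested.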
